A study of Rattus norvegicus with 4 samples.

Results

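The genes described here are 9 components of vitamin A binding, metabolism and signalling: the binding proteins Rbp2, Crabp1 and Crabp2, the enzymes Rdh10, Aldh1a1 and Aldh1a2, and the receptors Rara, Rarb and Rxra. They were chosen by gene symbol, taking each probe set annotated to exactly 1 gene that carries 1 of these names. This gave 10 probe sets for 9 genes, of 10411 genes with such a probe set and of 15866 probe sets that are not controls. The names were picked with the temperature differences of these arrays known, above all the high levels of Rbp2 and Aldh1a1 at 39 °C. The members' values are therefore a description. Limma calls are counted for them below, but no p-value is given for a member and nothing is read from the count.

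Cells turn vitamin A into a signal in a few steps. Retinol is held in the cytoplasm by cellular retinol-binding proteins, oxidised to retinaldehyde by retinol dehydrogenases and then to retinoic acid by retinaldehyde dehydrogenases. Retinoic acid is carried by its own binding proteins and activates the retinoic acid receptors, which sit on DNA paired with a retinoid X receptor. In the trachea retinoids keep the lining mucous and ciliated, and animals short of vitamin A replace it with a squamous, keratinised epithelium.

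Expression was measured in RTEC11, a single tracheal epithelial line from rats transgenic for a large T antigen of SV40, a virus of monkeys, that loses its activity at high temperature. All cells in both groups carried it, and the sources used here do not name the promoter that drives it. The permissive group was kept at 33 °C and the nonpermissive group at 39 °C, each for 3 days, with 2 arrays per group and 4 arrays in all. Temperature and antigen activity changed together and cannot be told apart. Nothing in the labels says that replicates came from separate cultures, so p-values and errors cover only the spread between these arrays, and 2 arrays per group limit the precision. Values are probe set intensities with no unit, which had been brought to a common trimmed mean before deposit (500.1 to 500.2 per array). Median intensities were 152.7 to 155.6 at 33 °C and 171.1 to 174.3 at 39 °C. Replicates correlated at 0.979 and 0.980, against 0.950 to 0.953 between temperatures. Differences below are 39 °C minus 33 °C in log2(intensity + 16) after quantile normalization, which understates the change of dim probe sets. A probe set is called dim where its mean is below 6.60 on this scale (an intensity of 81.1), the level that 40% of probe sets fail to reach. Levels of different probe sets cannot be compared with each other.

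Most epithelial markers were strong in all arrays. Of 10 airway epithelial markers 9 had a probe set and 7 of these were at or above the dim limit by their mean over the 4 arrays. Among the 7, the club cell protein Scgb1a1 was dim at 33 °C (38.7 and 58.3) and above the limit at 39 °C (646.8 and 534.7). Of the 9, 3 rose, 1 fell and 5 did not pass limma's threshold. Besides Scgb1a1, Krt19 rose by 0.77 ± 0.08 (SE; limma adjusted p 8.32e-04). Epcam, named after its values were seen, rose by 0.53 ± 0.11 (SE; limma adjusted p 0.0143). Krt18 fell by 0.36 ± 0.08 (SE; limma adjusted p 0.014). The Krt18 call was lost under 3 alternative settings and that of Krt19 under 1. Krt5, a basal cell keratin, and Foxj1, a factor of ciliated cells, were dim, but Krt14, another basal cell keratin, read 12515.9 and 12845.6 at 33 °C and 11449.4 and 11668.6 at 39 °C. The summed intensity of these markers was 57450 to 61360 at 33 °C and 67910 to 68720 at 39 °C. Such sums are carried by the brightest probe sets and do not measure the share of a cell type. Fibroblast and stellate cell markers, 7 of 7 measured and 6 of them dim, summed to 197.2 to 208.3 and 253.3 to 333.4. The 4 leukocyte markers, all dim by their mean over the 4 arrays, summed to 142.3 to 155.6 and 142 to 151.7. Among them Cd74, named after its values were seen, was above the limit at 33 °C (99.6 and 92.9) and dim at 39 °C (41.5 and 47.3). Its difference was -1.02 ± 0.31 (SE) and that of Cd68, dim at both temperatures, 1.03 ± 0.32 (SE). Neither passed limma's threshold. The 2 endothelial markers measured, of 4, summed to 9.4 to 23.9 and 25.3 to 74.3. Smooth muscle markers, 4 of 4 measured, summed to 524.5 to 690.8 at 33 °C and 394.3 to 459.6 at 39 °C; Tagln fell, and Myh11 rose, a call lost without nonpermissive replicate 1 (1.78). For mesothelium, 2 of 5 markers were measured. Their sum, 3728 to 3786 and 6236 to 6923, was nearly all mesothelin (Msln), which rose by 0.92 ± 0.08 (SE; limma adjusted p 4.19e-04), while the mesothelial factor Wt1 was dim at both temperatures. No marker was listed at 0. The part of these markers in the results below was not tested.

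RefSeq promoter windows (rat assembly GRCr8, 250 bases before to 50 after the gene's start) were found for 8 of the 9 genes and scanned for the core hexamers that retinoid receptors bind. These were AGGTCA or GGGTCA or AGTTCA or GGTTCA, on both strands, alone or as a direct repeat with 1, 2 or 5 bases between the hexamers. Of all 33469 windows, 44.4% held at least 1 such hexamer, 0.233% a repeat with spacing 1, 0.170% with spacing 2 and 0.382% with spacing 5. Among the members, 4 of 8 held a hexamer (Rbp2, Aldh1a1, Rara and Rarb), and Rarb alone of these held a repeat, with spacing 5. This is the type of element through which Rarb is known to be induced by retinoic acid. Shown here are the Rarb repeat and the 130 bases before the start of Rbp2 and Aldh1a1, the genes with the largest differences, all on the plus strand, 5′ to 3′. Capitals mark the repeat in Rarb and, in the others, hexamers, which there read on the opposite strand.
Rarb, chr15:11336410-11336438: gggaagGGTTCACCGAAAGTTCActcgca
Rbp2, chr8:107963412-107963541: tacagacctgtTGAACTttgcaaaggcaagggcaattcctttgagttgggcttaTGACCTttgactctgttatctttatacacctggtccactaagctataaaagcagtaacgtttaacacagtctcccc
Aldh1a1, chr1:227537490-227537619: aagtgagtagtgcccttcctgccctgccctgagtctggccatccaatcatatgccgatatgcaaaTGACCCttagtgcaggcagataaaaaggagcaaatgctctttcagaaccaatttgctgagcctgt

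The Rarb repeat spans bases 25 to 41 counted from the annotated start as base 1. The Rbp2 window held its hexamers at 119 to 114 and 76 to 71 bases before the start, which are too far apart to form a repeat of the kinds searched. Aldh1a1 had a single hexamer, 65 to 60 bases before its start. The windows of Crabp1, Crabp2, Aldh1a2 and Rxra held none of these letters, which says nothing of receptor binding there or elsewhere. GC content was 52.0% for Rbp2 and 48.3% for Aldh1a1, against a median of 51.7% over all windows. The other 6 members' windows ranged from 61.0% (Crabp2) to 84.7% (Rxra). The pair with large differences thus had the lowest GC content of the 8, an observation made after their values were known.

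Differences among the retinoid genes were uneven. Rbp2 and Aldh1a1 were far higher at 39 °C, Rxra was moderately higher, and the others lay within 0.65 log2 units of no difference in either direction. Of the 10 probe sets, 2 (Rbp2 and Aldh1a1) passed limma's threshold and both were higher. Without permissive replicate 1 the count was 3 higher and 1 lower, with spike-in scaling 2 higher and 1 lower, and on the deposited scale 3 higher. Over all 15866 probe sets 24.7% passed, 12.1% as higher and 12.6% as lower. Because the members were picked from this comparison, nothing is read from the count. The median difference of the 10 probe sets was 0.05, against -0.03 for all probe sets, and the median size of difference was 0.52 against 0.35. Of the 10, 4 were dim at both temperatures (Crabp1, Aldh1a2, 1 of the Rdh10 probe sets, and Rarb). Another 3 were above the limit at both temperatures (Rdh10 by its other probe set, Rara and Rxra). Rbp2 and Aldh1a1 were dim at 33 °C and passed the limit at 39 °C, while Crabp2 did the reverse. The groups did not overlap in 3 probe sets that were higher and 2 that were lower, where 28.4% and 31.6% of all probe sets did so. All arrays together gave 3926 calls, but the number was 2232 when nonpermissive replicate 1 was left out and 2239 when nonpermissive replicate 2 was.

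**Figure D1:**
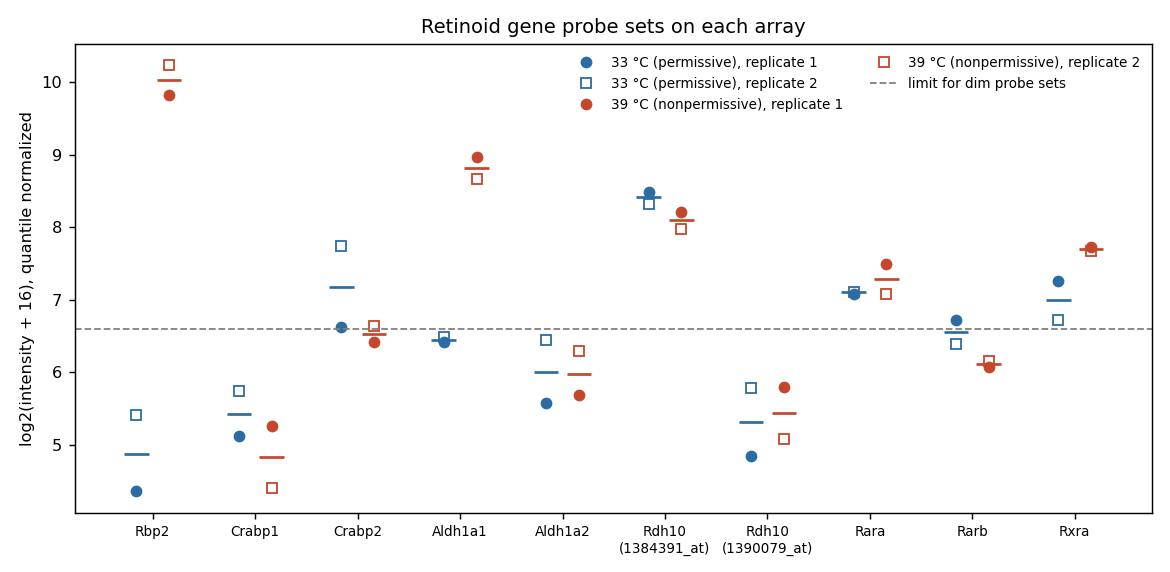
Log2(intensity + 16) after quantile normalization (y axis) of each retinoid gene probe set (x axis) on each of the 4 arrays, with circles for replicate 1, squares for replicate 2 and short lines for group means. Rbp2 and Aldh1a1 cross the dashed limit for dim probe sets (6.60) between 33 °C and 39 °C, and Rxra is higher on both 39 °C arrays.

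Among the binding proteins, Rbp2 stood out. Rbp2 is the cellular retinol-binding protein best known from the absorptive cells of the small intestine, where it hands retinol to the enzyme that stores it as ester. Its intensities were 4.3 and 25 on the 33 °C arrays and 893.9 and 1190.3 on the 39 °C arrays. Both 33 °C values were near the floor of the array and both 39 °C values well above the dim limit, with no overlap. The log2 level was 4.88 ± 0.74 at 33 °C and 10.03 ± 0.29 at 39 °C (SD, n = 2 each), a difference of 5.14 ± 0.37 (SE), or 35.3-fold. This was the rank 3 rise among the 15866 probe sets. The size is loosely fixed because the 33 °C level is so low. It was 83.9-fold with 1 added to each intensity and 13.8-fold with 64 added. Without permissive replicate 1 the log2 difference was 4.62 and without permissive replicate 2 it was 5.67, and it ranged from 4.80 to 5.18 under the other scalings.

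The retinoic acid-binding proteins did not follow Rbp2. Crabp1, which holds retinoic acid in the cytoplasm, had intensities of 17.5 and 36.2 at 33 °C and 26.1 and 5.1 at 39 °C. It was dim on all arrays, the groups overlapped, and the log2 difference was -0.60 ± 0.41 (SE). Crabp2, which passes retinoic acid on to the receptors, read 77.5 and 188.5 at 33 °C and 77.5 and 84.3 at 39 °C. Permissive replicate 2 was high and the other 3 arrays were close together. The log2 level was 7.18 ± 0.80 at 33 °C and 6.53 ± 0.16 at 39 °C (SD, n = 2 each), a difference of -0.65 ± 0.40 (SE). It rested on permissive replicate 2, since the difference was -0.09 without that array and -1.22 without permissive replicate 1. Only 4.66% of all probe sets had a larger gap between their permissive replicates.

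Of the enzymes, Aldh1a1 differed most. Aldh1a1 oxidises retinaldehyde to retinoic acid and also clears other aldehydes. Its intensities were 65.9 and 69.6 at 33 °C and 498.1 and 404.6 at 39 °C. The 33 °C arrays were close to each other just under the dim limit, and both 39 °C arrays lay far above them. The log2 level was 6.45 ± 0.05 at 33 °C and 8.82 ± 0.22 at 39 °C (SD, n = 2 each), a difference of 2.36 ± 0.21 (SE), or 5.14-fold. This was the rank 64 rise among all probe sets, and 0.504% of probe sets had a difference of larger size. Unlike that of Rbp2, its value moved little when an array was left out, from 2.21 to 2.51. With 1 or 64 added to the intensities it was 5.98-fold and 3.68-fold.

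Its relative Aldh1a2, which catalyses the same reaction and supplies most retinoic acid in the embryo, showed no such difference. It read 29.9 and 67.6 at 33 °C and 40.5 and 60.7 at 39 °C, dim throughout and with the groups fully overlapping. The log2 difference was -0.03 ± 0.42 (SE), and a moderate change in either direction lies within this error. Rdh10, which makes retinaldehyde from retinol ahead of these dehydrogenases, was measured by a clear and a dim probe set. The clear probe set read 329.5 and 293.8 at 33 °C and 295.6 and 248.9 at 39 °C, a log2 difference of -0.31 ± 0.16 (SE). After quantile normalization both 39 °C values lay below both 33 °C values, but the intensities as deposited overlapped, and the difference ranged from -0.57 to -0.19 under the other scalings. The dim probe set read 11.5 and 37.8 at 33 °C and 45.1 and 18.5 at 39 °C, with a log2 difference of 0.12 ± 0.44 (SE) that changed sign when single arrays were left out (-0.35 to 0.59).

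The receptors differed less than the enzymes and binding proteins at the top of the range. Rxra, the retinoid X receptor that partners retinoic acid receptors and several other nuclear receptors, read 128.4 and 85.6 at 33 °C and 207.3 and 198.1 at 39 °C. Both 39 °C arrays were above both 33 °C arrays and nearly equal to each other. The log2 level was 6.99 ± 0.38 at 33 °C and 7.70 ± 0.04 at 39 °C (SD, n = 2 each), a difference of 0.71 ± 0.26 (SE), or 1.64-fold. Its size depended on the lower 33 °C array: it was 0.44 without permissive replicate 2 and 0.98 without permissive replicate 1. Rara, the retinoic acid receptor found in most tissues, read 110.8 and 116.4 at 33 °C and 174.6 and 123.2 at 39 °C. Nonpermissive replicate 1 was high and the other 3 arrays lay together, with a log2 difference of 0.19 ± 0.25 (SE) that was -0.02 without that array and -0.05 with arrays scaled to their spike-in controls. Rarb, the receptor whose own gene responds to retinoic acid and whose repeat is printed above, read 83.2 and 65.1 at 33 °C and 58.6 and 53.0 at 39 °C. Both 39 °C values were under both 33 °C values, with a log2 difference of -0.45 ± 0.31 (SE) at levels under the dim limit by their mean.

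**Figure D2:**
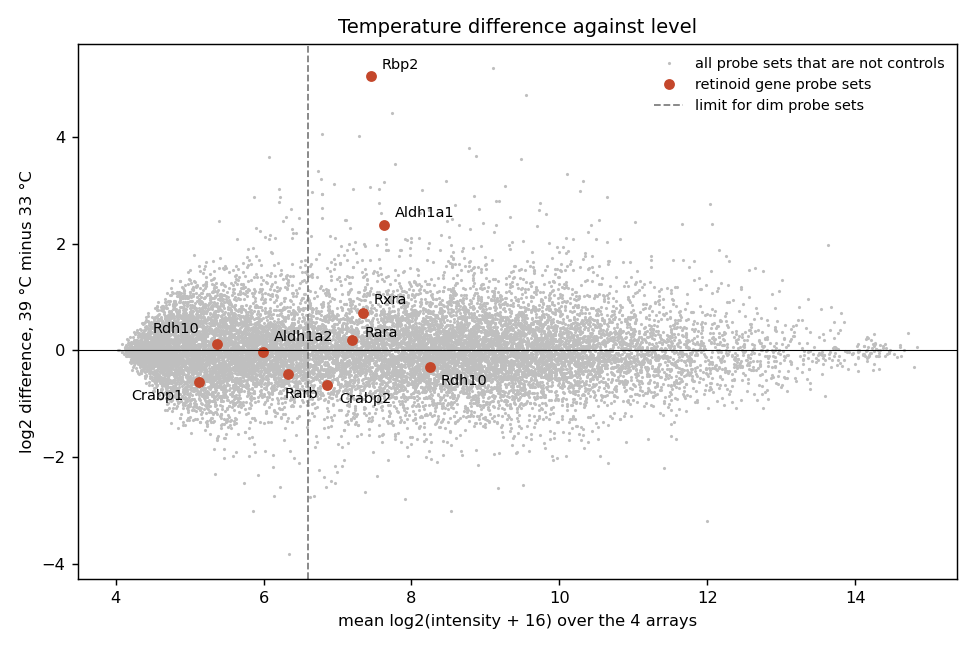
Log2 difference, 39 °C minus 33 °C (y axis), against the mean log2(intensity + 16) over the 4 arrays (x axis) for all 15866 probe sets in grey and the 10 retinoid gene probe sets in red. Rbp2 (5.14) and Aldh1a1 (2.36) lie at the upper edge of the cloud, and the other 8 points lie inside it.

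How far each difference depended on the processing is drawn in the plot of differences by setting. Rbp2, Aldh1a1 and Rxra were above 0 and Crabp1, Crabp2, Rarb and the clear Rdh10 probe set below 0 in every setting in which they were fitted. The settings without an intensity trend and with a replicate block cannot change a difference, so they do not test its sign. Aldh1a2, Rara and the dim Rdh10 probe set had values on both sides of 0. Scaling arrays to spike-in controls moved the median of all probe sets to -0.34, from -0.03 after quantile normalization, and lowered the members with it. With quantile normalization 48.9% of calls were in the higher direction. Left on their deposited scale the arrays gave 54.7%, centred on their medians 38.2% and scaled to spike-in controls 19%.

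**Figure D3:**
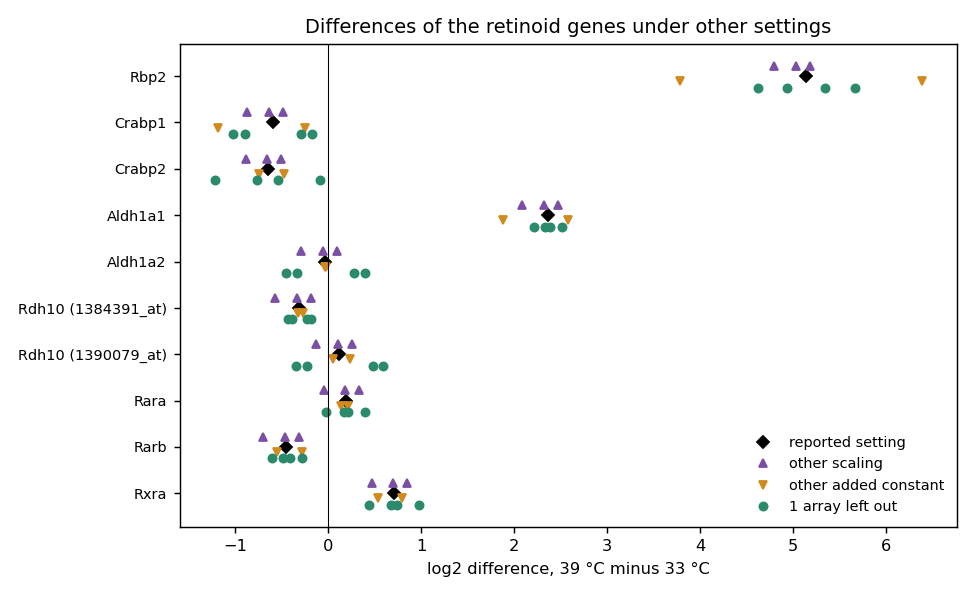
Log2 difference, 39 °C minus 33 °C (x axis), of each retinoid gene probe set (y axis) in the reported setting (black diamonds), under 3 other scalings, with 1 or 64 added in place of 16, and with each array left out in turn. Rbp2 spreads from 3.79 to 6.39 and Aldh1a1 from 1.88 to 2.58, both clear of 0, while Aldh1a2 spreads from -0.46 to 0.40.

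The genes whose pattern was nearest to the leading members were found by the distance between log2 values on the 4 arrays after each was centred on its mean. Nearest to Rbp2 were Mgmt (distance 0.37), a DNA repair protein, Ephx1 (0.81), the microsomal epoxide hydrolase, and RT1-CE5 (1.11), a class I histocompatibility gene. Mgmt shared the low reading on permissive replicate 1, with intensities of 52.8 and 87.3 at 33 °C and 3029.0 and 3649.5 at 39 °C. Nearest to Aldh1a1 were Ccng2, a cyclin-like gene linked to cell cycle arrest, and Upk3bl1, both at 0.13, and S100a13 (0.21), a calcium-binding protein. Ccng2 read 563.5 and 648.1 at 33 °C and 3615.1 and 3061.5 at 39 °C, a difference of 2.45 ± 0.12 (SE). This likeness rests on 4 arrays in 2 groups and is a description.

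The other genes of the pathway, and genes related to it, were followed in lists that leave the members out. The related genes are fatty acid binding proteins, retinoic acid responsive genes, and squamous and mucociliary genes. All are called pathway genes here, so the counts and medians over all lists do not describe the pathway's own steps alone. Of 138 genes listed, 92 had a probe set of their own, and the brightest probe set stands for each. By limma with adjusted p under 0.05 over all probe sets, 11 rose, 12 fell and 69 did not pass. The share that passed was 25%, against 28.7% of all 10411 genes (13.6% higher and 15.0% lower), and 49 of the 92 were dim. The median log2 difference was 0.03, against -0.04 for all genes. Without nonpermissive replicate 1 or without nonpermissive replicate 2, 11 of them passed in all. Without an intensity trend in the fit, the calls given below for Dgat1, Dhrs3, Akr1b1, Tbl1x, Hdac3, Ncoa1, Nr2f2, Fabp5, Lamb1, Icam1, Ets1, Gprc5a and Tgm1 were lost. Aldh1a3, the third retinaldehyde dehydrogenase, and the corepressor Nrip1 had no probe set annotated to them alone and were not analysed here.

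In retinol uptake, carriage and storage, 2 of 11 genes measured fell and 9 did not pass (median -0.22), and 8 were dim. Scarb1, a lipoprotein receptor that also takes up carotenoids, read 909.1 and 856.4 at 33 °C and 463.9 and 445.7 at 39 °C and fell by 1.0 ± 0.10 (SE) on the log2 scale (limma adjusted p 6.56e-04). A further Scarb1 probe set had a difference of -1.02. Dgat1, an acyltransferase that can esterify retinol, changed by -0.78 ± 0.20 (SE; limma adjusted p 0.0276). That call was lost without permissive replicate 2 (-0.69) and without nonpermissive replicate 2 (-0.48). Stra6, the cell surface receptor for retinol-binding protein, and Lrat, the main retinol esterifying enzyme, had differences of -0.64 ± 0.42 and -0.22 ± 0.38 (SE) and did not pass. Lrat was dim at both temperatures and Stra6 at 39 °C. The 3 further probe sets of Stra6, all dim, were at -0.11, 0.14 and 0.15 and did not pass.

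Among the retinol and retinaldehyde oxidoreductases 1 of 13 genes measured rose, 2 fell and 10 did not pass (median -0.20), and 6 were dim. Dhrs3, which reduces retinaldehyde back to retinol and is itself induced by retinoic acid, rose 4.0-fold. It read 33.7 and 109.6 at 33 °C and 354.1 and 299.9 at 39 °C, a log2 difference of 2.0 ± 0.42 (SE; limma adjusted p 0.0138). Both 39 °C arrays were above both 33 °C arrays, which differed widely from each other. The call was lost without nonpermissive replicate 1 (adjusted p 0.106) and without nonpermissive replicate 2 (0.0788), at differences of 1.89 and 2.12. The size depended on the 33 °C arrays: it was 1.33 (2.51-fold) without permissive replicate 1 and 2.67 (6.36-fold) without permissive replicate 2. Dhrs4, a peroxisomal reductase that also acts on retinaldehyde, fell from 283.0 and 339.5 to 97.5 and 112.7, a log2 difference of -1.57 ± 0.21 (SE; limma adjusted p 0.00218). The aldose reductase Akr1b1 changed by -0.32 ± 0.09 (limma adjusted p 0.0408), a call lost without permissive replicate 2 (-0.23) and without either nonpermissive array (-0.35 and -0.28). Rdh11, a retinol dehydrogenase and retinaldehyde reductase, had a difference of -0.38 ± 0.16 (SE) and did not pass, though it did with spike-in scaling (-0.66).

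Of the 3 cytochromes that break retinoic acid down, which are classic targets of the pathway, 2 were measured. Both were dim by their means, and Cyp26c1 had no probe set annotated to it alone. Cyp26a1 read 87.4 and 44.0 at 33 °C and 68.5 and 85.8 at 39 °C, with a log2 difference of 0.10 ± 0.38 (SE). Cyp26b1 was at 9.7 to 17.3 on all 4 arrays, with a difference of -0.05 ± 0.31 (SE). Neither passed, and in both genes the groups overlapped.

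Of 21 receptors, partners and coregulators measured, 4 rose, 1 fell and 16 did not pass (median 0.10), and 4 were dim. Subunits of the NCoR corepressor complex, through which unliganded retinoic acid receptors silence genes, changed in opposite directions. Tbl1xr1 rose by 1.34 ± 0.11 (SE; limma adjusted p 2.78e-04), from 312.3 and 338.7 to 884.3 and 896.8, and a further probe set also passed at 1.27 (adjusted p 0.026), while a dim one was at 0.88 ± 0.47 (SE; adjusted p 0.244) and did not. Its paralog Tbl1x rose by 0.70 ± 0.14 (SE; limma adjusted p 0.0102), a call lost with spike-in scaling (0.32). Hdac3, the complex's histone deacetylase, fell by 0.68 ± 0.09 (SE; limma adjusted p 0.00183), from 1320.6 and 1243.8 to 824.4 and 787.5. Ncor1 itself had a difference of 0.29 ± 0.12 (SE) and a further probe set was at 0.63 ± 0.20 (SE; limma adjusted p 0.0599); neither passed. The remaining rises, named after their values were seen, were those of the coactivator Ncoa1 (0.57) and the orphan receptor Nr2f2 (0.47). Both calls were lost without permissive replicate 1 (0.42 and 0.32), without nonpermissive replicate 1 (0.61 and 0.50), without nonpermissive replicate 2 (0.52 and 0.44) and with spike-in scaling (0.25 and 0.08), and that of Nr2f2 also with median centring (0.31). The other retinoid receptors Rarg (0.09 ± 0.16 SE) and Rxrb (0.24 ± 0.23 SE) did not pass. Rarg was above the dim limit on all arrays, at 250.2 and 218.3 at 33 °C and 276.0 on each 39 °C array.

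The fatty acid binding proteins belong to the same protein family as Rbp2 and the Crabp genes. Of 9 measured, 8 were dim. Fabp5, which can carry retinoic acid to another nuclear receptor, Ppard, gave a bright signal. It fell by 0.61 ± 0.10 (SE, limma adjusted p 0.0053), from 10572.1 and 9397.7 to 5719.9 and 6531.0. Both 39 °C arrays were below both 33 °C arrays. The call was lost without nonpermissive replicate 1 (-0.51, adjusted p 0.0509). The other 8 did not pass.

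Genes known to respond to retinoic acid in other systems went both ways. Of 21 measured, 2 rose, 5 fell and 14 did not pass (median 0.05), and 11 were dim. Besides Dhrs3, the laminin chain Lamb1 rose by 0.48 ± 0.10 (SE; limma adjusted p 0.0124), a call lost without either nonpermissive array (0.52 and 0.44), with median centring (0.33) and with spike-in scaling (0.09). The tissue plasminogen activator Plat was 194.8 and 173.0 at 33 °C and 81.4 and 86.8 at 39 °C, a difference of -1.14 ± 0.24 (SE; limma adjusted p 0.014). The Plat call was lost without permissive replicate 1 (-1.06), without nonpermissive replicate 1 (-1.04) and without nonpermissive replicate 2 (-1.25). The transcriptional repressor Bhlhe40 fell by 1.01 ± 0.16 (SE; limma adjusted p 0.00425). The other falls, named after their values were seen, were Icam1 (-0.40), Ets1 (-0.39) and Gprc5a (-0.38). All 3 calls were lost without permissive replicate 1 (-0.31, -0.30 and -0.34) and without either nonpermissive array (-0.28 to -0.49). Those of Icam1 and Ets1 were also lost on the deposited scale (-0.34 and -0.35), and that of Ets1 without permissive replicate 2 (-0.47), with 64 added (-0.37) and with the replicate number as a block (adjusted p 0.0515). Transglutaminase Tgm2 was at 0.40 ± 0.12 (SE, limma adjusted p 0.0515) and did not pass. It did pass under 5 of the 14 alternative settings, 1 of them the deposited scale (0.49, limma adjusted p 0.0247). Its further probe set passed at 0.90 (limma adjusted p 0.012).

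**Figure D4:**
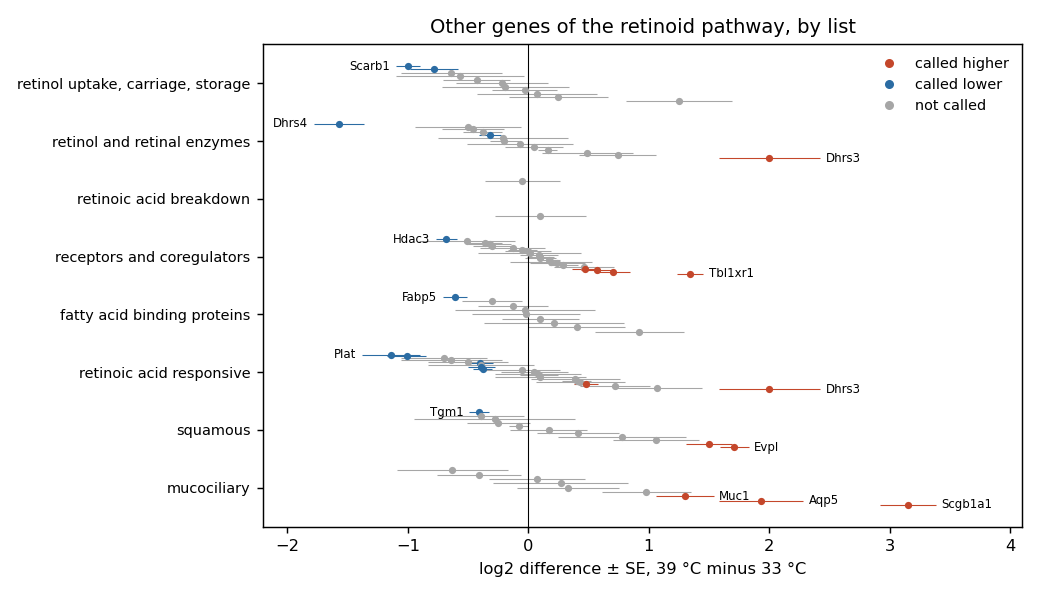
Log2 difference with its SE, 39 °C minus 33 °C (x axis), of the other retinoid pathway genes, grouped by list (y axis); red points were called higher, blue points lower and grey points not called by limma. Dhrs3 (2.0) appears in both lists that hold it, and calls in both directions are seen in 4 of the 8 lists.

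Genes that retinoids restrain or sustain in airway epithelium were listed as well. Of 11 squamous genes measured, 2 rose, 1 fell and 8 did not pass (median 0.17), and 7 were dim. Envoplakin (Evpl), a cornified envelope protein, rose by 1.71 ± 0.12 (SE; limma adjusted p 1.89e-04) and the protease inhibitor Serpinb2 by 1.5 ± 0.19 (SE; limma adjusted p 0.00178). The transglutaminase Tgm1, which cross-links the envelope, fell by 0.41 ± 0.08 (SE; limma adjusted p 0.0113), a call lost without nonpermissive replicate 1 (-0.34). Involucrin (Ivl) and the keratin Krt13, named after their values were seen, were dim at both temperatures. Their differences were -0.25 ± 0.26 and 1.06 ± 0.36 (SE; limma adjusted p 0.567 and 0.0754), and neither passed.

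Of 9 mucociliary genes measured, 3 rose and 6 did not pass (median 0.33), and 6 were dim. The club cell protein Scgb1a1 read 38.7 and 58.3 at 33 °C and 646.8 and 534.7 at 39 °C, a difference of 3.15 ± 0.23 (SE; limma adjusted p 2.16e-04). The water channel Aqp5 rose by 1.93 ± 0.35 (SE; limma adjusted p 0.00694), from 16.3 and 9.3 to 91.7 and 117.1, a call lost without nonpermissive replicate 2 (1.73). The membrane mucin Muc1, named after its values were seen, rose by 1.30 on the log2 scale, a call lost without nonpermissive replicate 1 (1.26) and without nonpermissive replicate 2 (1.34). All 3 were dim at 33 °C. The 6 that did not pass went both ways: Muc2 (-0.63), Tff3 (-0.41), Muc4 (0.07), Foxj1 (0.27), Muc5ac (0.33) and Pigr (0.98). Of all 10411 genes, 13.6% passed as higher. A link between these rises and retinoids was not tested.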

How the data were processed

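Total RNA was converted to biotin-labelled cRNA and stained with phycoerythrin, per the labels' protocols. The deposited values are probe set intensities for 15923 probe sets on 4 arrays, scaled by the authors; the sources used here do not name the summarising software. After 57 control probe sets were left out, log2(intensity + 16) was quantile normalized and fitted over 15866 probe sets with limma 3.58.1 in R 4.3.3 (lmFit, eBayes with intensity trend, 2 residual degrees of freedom, with a median prior of 4.99), two-sided, Benjamini-Hochberg threshold 0.05. Groups came from sample titles. Gene names came from the platform annotation in GEO: 12783 had 1 symbol, 312 several and 2771 none; 12748 matched RefSeq (GRCr8) by Entrez identifier. List genes used their brightest probe set, _x_at only where there was no other. Named genes were all members, up to 2 rises and 2 falls per list (or the largest change), 13 set names and 3 nearest patterns for each of 2 members. Members and lists were chosen with earlier results of these data known. The fit was tested on simulated data with changes planted only in probe sets more than 1 log2 unit above the dim limit. That test does not cover dim probe sets. Same-numbered arrays did not deviate together (correlation 0.00682). Figures used matplotlib 3.10.9 in Python 3.11.15. Alternatives were 3 other scalings, adding 1 or 64, dim filters at the 40th and 60th percentile, 1 probe set per gene, no trend, a replicate block and each array left out.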

Additional observations from a re-analysis of the deposited data

How the results depend on the processing

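Over 14 alternatives, 126 member differences were recomputed. Of these, 9 moved by more than 1 SD between replicates and 0 called differences changed sign. Leaving out the intensity trend or adding the replicate block cannot change a difference between these groups, so part of the 126 could not move. The called members were Rbp2 and Aldh1a1, picked with their large differences known, so the lack of sign changes says little. Of 46 named genes that are no members, 23 kept their call, or lack of it, under every alternative that could test them. Against 3926 probe sets called (1920 higher, 2006 lower) and 23 pathway genes (11 higher, 12 lower), spike-in scaling gave 961 higher and 4087 lower, and 7 and 19 pathway genes. Without an intensity trend 1838 were called (949 higher, 889 lower), with 10 pathway genes (6 and 4). With 1 array left out the calls ranged from 2232 to 3211 (1032 to 1639 higher, 1181 to 1572 lower), and pathway genes from 11 to 21 (5 to 12 higher, 5 to 9 lower); the lone array of a group was assumed to vary like the other group. With the replicate number as a block 3975 probe sets and 22 pathway genes were called. The replicate numbers are not known to pair samples. The dim filter at the 40th percentile, set on the mean over all arrays, kept 6 of the 10 member probe sets. Of these 6, 3 were called higher. Over all 9520 probe sets kept by that filter, 4494 were called, 47.7% of them higher. Rbp2 and Aldh1a1 were kept although dim at 33 °C, so the filter did not remove dim groups, and nothing is read from its count. The filter at the 60th percentile kept 1 member probe set. Where a call was lost, the cause was not tested. Levels under the dim limit bear on Rbp2 and Aldh1a1 at 33 °C and on Crabp1, Aldh1a2 and Rarb at both temperatures. That limit is a percentile and not a measured background, and Aldh1a1 at 33 °C (6.45) lay just under it.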
